A study of Mus musculus with 4 samples.

Results

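Transient receptor potential (TRP) channels of the mouse popliteal vessel wall were followed through 8 genes taken by symbol from the deposited gene lists, of 32286 genes in all: Trpc1, Trpc6, Trpm3, Trpm4, Trpm7, Trpv2, Trpv4 and Pkd2. These genes were chosen with earlier results of these data known. RNA was counted in single cells of adult mice that carried the WT1GFPCre allele (Wt1tm1(EGFP/cre)Wtp/J) and the Ai9-tdT reporter (Gt(ROSA)26Sortm9(CAG-tdTomato)Hze/J), with Evans blue dye injected in the footpad. The mice of all 3 libraries shared these alleles and the dye, and no mice without them were included. PLV replicates 1 and 2 were libraries of popliteal lymphatic vessels, each from its own pool of 2 mice and digested for 30 min with collagenase I, Dispase II, DNAse and Liberase. The third, called the mixed library, joined PLV cells and cells labelled BV from 1 pool of 2 mice after 60 min in collagenase I and Dispase II. The mixed library thus differed from the PLV pair in vessel, digestion, run and mice at once, and these cannot be told apart. The deposited text does not tie each hashtag to a vessel, so PLV and BV cells were not compared.

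TRP channels are cation channels of the cell membrane and of internal membranes, and each is built from 4 subunits. In muscle of vessel walls they let in calcium or sodium after a receptor is stimulated, the membrane is stretched or internal calcium rises, and the depolarisation that follows opens voltage-gated calcium channels. In endothelium, calcium entry through them promotes the release of relaxing factors. TRPC6 is opened by diacylglycerol, the lipid that phospholipase C makes below Gq-coupled receptors, and TRPC1 assembles with other TRPC subunits. TRPV2 and TRPV4 respond to stretch, swelling and heat, and TRPV4 is well studied in endothelium. TRPM4 is opened by internal calcium and passes sodium but not calcium, TRPM7 joins a magnesium-permeable channel to a kinase, TRPM3 is opened by heat and by the steroid pregnenolone sulfate, and polycystin-2, the product of Pkd2, sits in cilia and the endoplasmic reticulum with roles in muscle calcium signalling.

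The starts of Trpc6 and Trpv2 are shown because these members had their highest levels in the same classes of contractile cells. The sequences are from RefSeq on GRCm38.p6, plus strand, and capitals mark a CArG box, the element bound by serum response factor. The Trpc6 stretch, chr9:8544010-8544039, holds the box and 10 bases on each side. The box begins 122 bases before the annotated transcript start at 8544142 and lies inside the RefSeq gene span, which opens further upstream. The Trpv2 stretch, chr11:62574236-62574485, is the 250 bases before its first transcript start and holds no CArG box.
Trpc6: cctttcgatcCCTTTAAAGGtggggatcgt
Trpv2: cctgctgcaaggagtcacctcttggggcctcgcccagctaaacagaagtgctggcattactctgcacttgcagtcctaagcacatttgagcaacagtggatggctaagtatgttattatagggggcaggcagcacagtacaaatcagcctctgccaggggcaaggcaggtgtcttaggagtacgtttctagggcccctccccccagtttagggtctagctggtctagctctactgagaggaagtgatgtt

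Of the members, 7 had an entry in the promoter table, with 10 starts in all; Trpm4 had none. On both strands of the 250 bases before each start, the CArG box was found at 1 of the 10 member starts and at 482 of 32851 starts of all genes (1.47%). The GC box GGGCGG was found at starts of Trpc1 and Trpv4 and at 32.7% of all starts, and the TATA box TATAAA at no member start and at 12.4% of all starts. A match describes the letters and is not a site shown to be bound. The genes lie at 9:95705072-95750386 (Trpc1, minus strand), 9:8543867-8680752 (Trpc6, plus), 19:22137797-22995410 (Trpm3, plus), 7:45303155-45334071 (Trpm4, minus), 2:126791558-126876261 (Trpm7, minus), 11:62574486-62600305 (Trpv2, plus), 5:114622152-114658435 (Trpv4, minus) and 5:104453982-104505819 (Pkd2, plus) on GRCm38. Exons of Trpm3 overlap the genes C330002G04Rik and Gm27151 on the opposite strand; the strand setting of the counting is not given in the sources used here, so its counts are uncertain in that respect. No other member shared exon sequence with another gene.

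Cells kept numbered 1909 in PLV replicate 1, 516 in PLV replicate 2 and 994 in the mixed library, with 9577642, 3390010 and 7770796 unique molecular identifiers (UMIs, each a counted RNA molecule) and no cell barcode shared. Median UMIs per cell were 3372, 4886.5 and 6162. Clusters were called by their marker genes. The 6 classes named in all 3 libraries were muscle-like (396, 109 and 314 cells in PLV replicates 1 and 2 and the third library), pericyte-like (39, 28 and 58), fibroblast-like (388, 87 and 276), blood endothelial-like (296, 65 and 174), lymphatic endothelial-like (192, 67 and 53) and Schwann-like (234, 52 and 38). Values are given in this order of libraries throughout, as CPM, the UMIs of a gene per 1000000 UMIs of the summed cells of a class. CPM is used to compare a gene between classes, and members are not compared with each other in level. The pericyte-like cells also carried muscle markers: in the PLV libraries the 10 pericyte markers summed to more than the 10 muscle markers, but in the mixed library to less (6155 against 13368 CPM). The 152 cells of PLV replicate 1 that stayed unnamed held 13428 CPM of the muscle markers and 20.5 CPM of Trpc6. Of these, 128 formed a cluster led by keratinocyte genes whose best match was the pericyte list, with 6 of 10 markers raised. Clustered more finely (Leiden resolution 2), PLV replicate 1 had pericyte-like clusters of 93 and 39 cells. The 39 cells used here may therefore leave out other pericyte-like cells of that library.

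Trpv2 was high in both contractile classes. In muscle-like cells it stood at 83.5, 61.5 and 50.6 CPM (65.2 ± 16.7, SD, n = 3 libraries), and in pericyte-like cells at 78.6, 103.7 and 42.7 CPM (75.0 ± 30.7). Blood endothelial-like cells held 10.4, 1.58 and 14.6 CPM, lymphatic endothelial-like cells 3.50, 2.15 and 1.21 CPM, and fibroblast-like cells 1.62, 0 and 0.473 CPM. Every contractile sum was above every sum of the other 4 classes, and the muscle-like and pericyte-like ranges overlapped. The log2 difference of muscle-like cells from the mean of the other classes, taken over log levels, was 3.80 (SE 0.30, adjusted p = 5.18e-09 in edgeR's quasi-likelihood test), and that of pericyte-like cells 3.65 (SE 0.45, edgeR adjusted p = 6.11e-06). Against the pooled UMIs of the other classes, a comparison added after the data were seen, the pericyte-like difference was 1.52 (SE 0.34, edgeR adjusted p = 0.00084), and the muscle-like one 3.15 (SE 0.26, edgeR adjusted p = 0.000172). Macrophage-like cells, named in PLV replicate 1 and the mixed library, held 54.7 and 22.5 CPM, and T or NK cell-like cells of the same libraries 58.5 and 28.2 CPM (9 and 2 UMIs). In PLV replicate 1 both were below the contractile levels of that library, but above those of the mixed library. The T or NK cell-like group of the mixed library held 21487 CPM of muscle markers and 705 CPM of T or NK markers. Its Trpv2 level can therefore not be read as a lymphocyte level. TRPV2 is known from macrophages too. Macrophage markers summed to at most 23.9 CPM in any muscle-like or pericyte-like sum.

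Trpc6, the diacylglycerol-gated channel, was highest in pericyte-like cells, at 61.7, 31.9 and 37.3 CPM from 11, 4 and 14 UMIs (43.6 ± 15.9, SD, n = 3). In muscle-like cells it stood at 5.86, 1.28 and 28.2 CPM from 12, 1 and 69 UMIs, and in blood endothelial-like cells at 7.78, 0 and 7.62 CPM. It had no UMI in fibroblast-like, lymphatic endothelial-like or Schwann-like cells of any library. Against the level that 3 UMIs over all libraries would give, the pericyte-like level pooled over libraries (42.7 CPM) was at least 62.9-fold higher than in fibroblast-like, at least 57.6-fold higher than in lymphatic endothelial-like and at least 10.7-fold higher than in Schwann-like cells. The muscle-like range was wide and overlapped the blood endothelial-like range, and its highest value came from the mixed library. The contrast with the mean of the other classes was called in edgeR for pericyte-like cells (adjusted p = 0.00031) and muscle-like cells (adjusted p = 0.00159), but its size depends on classes at 0. Against the pooled UMIs of the other classes, the log2 differences were 2.93 (SE 0.56, edgeR adjusted p = 0.000117) in pericyte-like and 1.57 (SE 0.47, edgeR adjusted p = 0.0373) in muscle-like cells, where that comparison called 18.7% and 40.5% of all genes. Without the mixed library muscle-like cells were not called by the former contrast (edgeR adjusted p = 0.0747). In blood endothelial-like cells Trpc6 was called higher at an edgeR adjusted p of 0.0499, but that call was lost without any 1 of the libraries (edgeR adjusted p of 0.268 and 0.067 without PLV replicates 1 and 2, and of 0.059 without the mixed one), and against the pooled other classes the difference was -0.20 (edgeR adjusted p = 0.825). Pericyte markers summed to 1950, 868 and 1141 CPM in blood endothelial-like cells, against 12704, 10138 and 6155 CPM in pericyte-like cells; their part in the Trpc6 counts was not tested.

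Trpc1 was broader. Pericyte-like cells held 39.3, 63.8 and 34.7 CPM (45.9 ± 15.7, SD, n = 3), muscle-like cells 31.2, 29.5 and 23.7 CPM (28.1 ± 3.96) and Schwann-like cells 14.8, 25.8 and 41.1 CPM. Fibroblast-like cells held 12.4, 11.1 and 12.3 CPM, lymphatic endothelial-like cells 3.06, 8.62 and 3.62 CPM, and blood endothelial-like cells 5.18, 4.74 and 4.44 CPM. The pericyte-like sums were all above the muscle-like ones, while the Schwann-like range spanned the muscle-like range. The log2 difference from the other classes was 1.70 (SE 0.34, edgeR adjusted p = 0.00132) for pericyte-like cells and 1.23 (SE 0.22, edgeR adjusted p = 0.000184) for muscle-like cells. Trpc1 was lower in blood endothelial-like cells by -1.83 (SE 0.33, edgeR adjusted p = 0.000211) and in lymphatic endothelial-like cells by -1.93 (SE 0.33, edgeR adjusted p = 0.000106).

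In muscle-like cells 3 of the 8 members were called higher (Trpv2, Trpc6 and Trpc1) and 0 lower, where 20.5% of the 10495 genes tested were called higher and 12.6% lower. In pericyte-like cells 4 were called higher (these 3 and Trpm7) and 0 lower, beside 9.44% and 4.86% of all genes. The median log2 difference over the 8 members was 0.35 in muscle-like and 1.03 in pericyte-like cells, and over all genes 0.02 and -0.04. The plot of levels by class shows Trpv2 high in the contractile classes and Trpv4 in the endothelial ones.

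**Figure D1:**
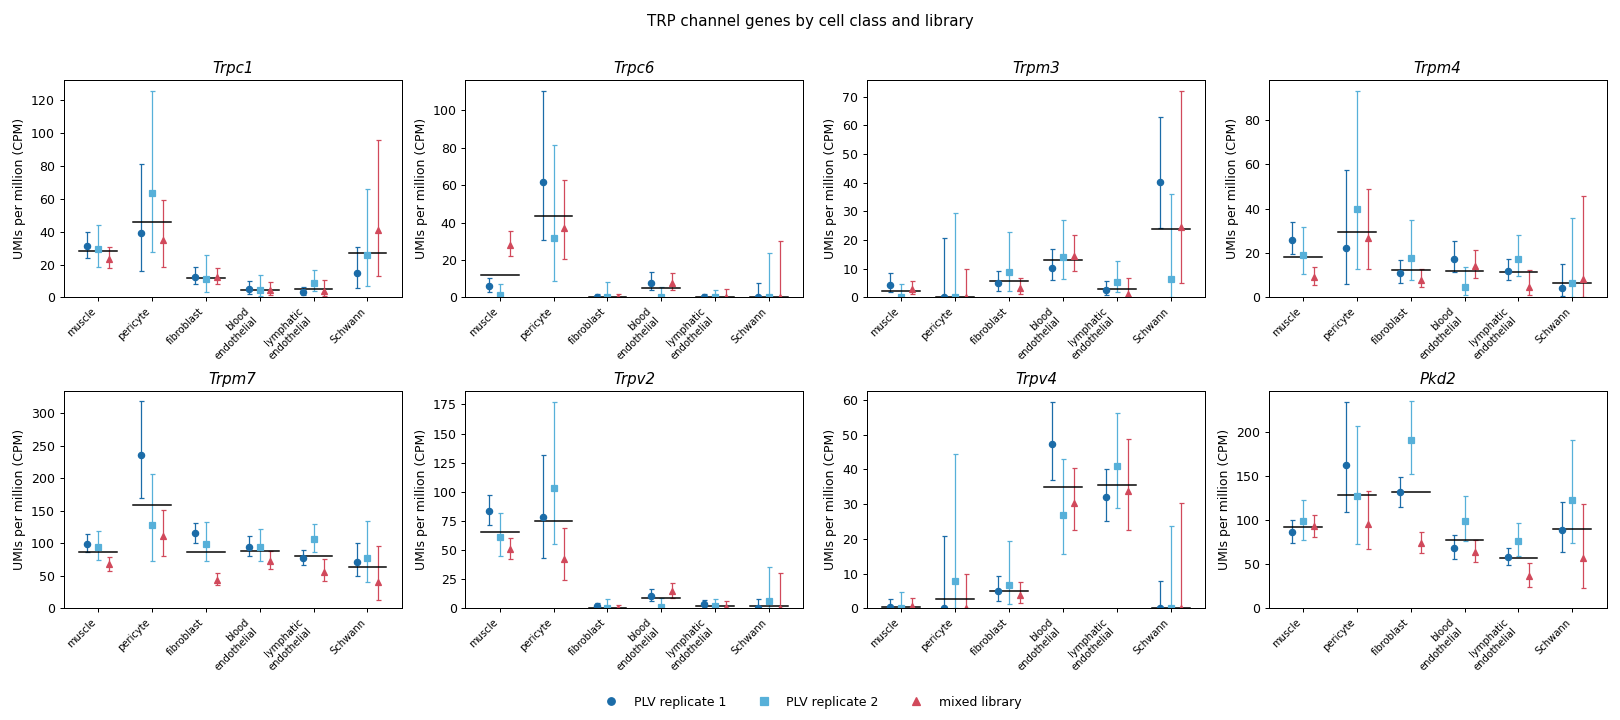
Level of each TRP member (CPM of summed UMIs) in the 6 classes, 1 panel per gene; points are the 3 libraries, bars are 95% exact Poisson intervals of the counts, and the black line is the mean over libraries. Trpv2 stood at 50.6 to 83.5 CPM in muscle-like and at most 14.6 CPM in endothelial-like cells. Trpv4 stood at 26.9 to 47.3 CPM in both endothelial classes and at most 7.98 CPM in the other classes shown.

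Among the classes named in all libraries, Trpv4 was highest in the endothelial ones. Lymphatic endothelial-like cells held 31.9, 40.9 and 33.8 CPM (35.6 ± 4.74, SD, n = 3) and blood endothelial-like cells 47.3, 26.9 and 30.5 CPM (34.9 ± 10.9). Fibroblast-like cells held 4.87, 6.65 and 3.78 CPM, pericyte-like cells 0, 7.98 and 0 CPM, and muscle-like cells 0.488, 0 and 0.816 CPM. The endothelial sums did not overlap those of the other 4 classes and overlapped each other. No UMI was found in Schwann-like cells, and against the level of 3 UMIs over all libraries the pooled endothelial levels (34.4 CPM lymphatic and 36.8 CPM blood) were at least 8.60-fold and at least 9.20-fold higher. The macrophage-like cells of PLV replicate 1 and the mixed library held 54.7 and 11.2 CPM (18 and 2 UMIs). They were thus above both endothelial classes in PLV replicate 1 and below both in the mixed library. Against the pooled other classes, a contrast that no class at 0 affects, the log2 difference was 1.71 (SE 0.28, edgeR adjusted p = 0.00254) in blood and 1.66 (SE 0.23, edgeR adjusted p = 0.00029) in lymphatic endothelial-like cells, each class then being set partly against the other, and 32.9% and 37.7% of all genes being called. By the same comparison Trpv4 was lower in muscle-like cells by -5.12 (SE 0.45, edgeR adjusted p = 0.000228). Against the mean of the other classes it was not called there (edgeR adjusted p = 1). That fit had an SE of 703, so it cannot decide. In the same contrast Trpv4 was called lower with DESeq2 and with edgeR at a minimum of 1000 UMIs per cell. Against the mean of the other classes Trpv4 was called higher in both endothelial classes (edgeR adjusted p of 9.99e-08 and 1.26e-07).

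Between lymphatic and blood endothelial-like cells, the log2 difference of Trpv4 was -0.04 (SE 0.29, edgeR adjusted p = 0.983). The members called were 3 lower in lymphatic than in blood endothelial-like cells and 0 higher, beside 11.5% of all genes lower and 9.71% higher. Trpc6 had no UMI in the lymphatic class (edgeR adjusted p = 0.0195). Trpm3 was lower by -2.10 (SE 0.62, edgeR adjusted p = 0.0199) in 3 of 3 libraries. Trpv2 was lower by -1.99 (SE 0.58, edgeR adjusted p = 0.016) in 2 of 3 libraries, with PLV replicate 2 at 2.15 CPM in lymphatic and 1.58 CPM in blood endothelial-like cells. None of the 3 was called without PLV replicate 1 (edgeR adjusted p of 0.161, 0.139 and 0.0805), and without the mixed library Trpm3 (edgeR adjusted p = 0.124) and Trpv2 (edgeR adjusted p = 0.205) were not called.

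Within blood endothelial-like cells, Trpv4 and Trpm3 were high in different clusters. Trpv4 stood at 122.5 CPM (45 UMIs) in the PLV replicate 1 cluster led by Sema3g, Gja5 and Sox17, genes known from arterial endothelium. In clusters led by Selp, a leukocyte adhesion gene of venules, it was at 41.9, 39.8 and 47.0 CPM, and in those led by the capillary genes Gpihbp1 and Cd36 at 11.5, 22.8 and 18.2 CPM. A mixed library cluster of 33 cells, led by Cytl1 and Vwf, held 37.3 CPM of Trpv4 (9 UMIs), 2.05 times the capillary-gene-led one (0.791 to 5.00), and 4.15 CPM of Trpm3 (1 UMI). It shares Cytl1 and Clu with the Sema3g-led cluster among the leading genes, and its Trpv4 level was below that cluster's and within the range of the Selp-led intervals. The ratio of the Sema3g-led to the capillary-gene-led cluster was 10.7 (exact 95% interval 4.99 to 26.3), and those of the Selp-led clusters were 3.66 (1.54 to 9.61), 1.74 (0.529 to 5.14) and 2.58 (1.30 to 5.29). Each Selp-led ratio was above 1, and the interval of PLV replicate 2, whose cluster had 12 cells, included 1. Trpm3 was instead highest in the capillary-gene-led clusters, at 20.0, 18.7 and 24.3 CPM, and stood at 5.45 CPM (2 UMIs) in the Sema3g-led cluster and at 0, 0 and 3.92 CPM in Selp-led ones. The Selp-led to capillary-gene-led ratio of Trpm3 was 0.161 (0.0183 to 0.664) in the mixed library. In that library the capillary-gene-led level, 24.3 CPM, was under the upper limit for near-empty droplets, which hold free RNA (27.2 CPM). These intervals cover counting error only. A Sema3g-led cluster was named in 1 library, so it could not be tested across libraries. At Leiden resolution 2, clusters with Sema3g among the leading genes also formed in PLV replicate 2 (16 cells) and the mixed library (40 cells). Both stayed unnamed for few markers. The capillary-gene-led cluster of the mixed library had 100 cells in the main run and 61 at that resolution. It may therefore hold such cells, which was not tested. Selp-led and capillary-gene-led clusters were named in each library, but no test across libraries was run on them.

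**Figure D2:**
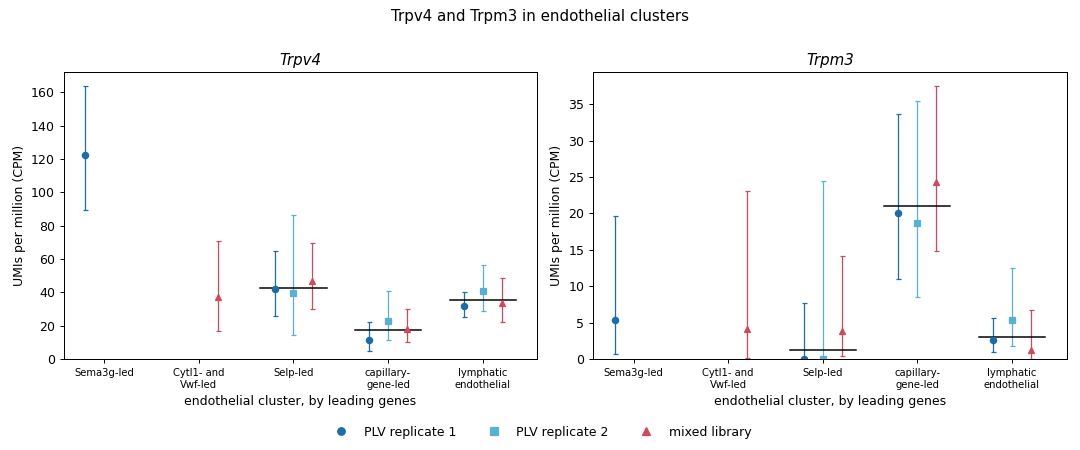
Trpv4 and Trpm3 (CPM) in the endothelial-like clusters, named by their leading genes; points are libraries, bars are 95% exact Poisson intervals and black lines are means over libraries. Trpv4 was lowest in the capillary-gene-led clusters (11.5 to 22.8 CPM), where Trpm3 was at 18.7 to 24.3 CPM.

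Trpm3 was called higher than in the other classes in blood endothelial-like cells (10.4, 14.2 and 14.6 CPM) and in Schwann-like cells (40.2, 6.44 and 24.6 CPM from 19, 1 and 3 UMIs). Fibroblast-like cells held 4.87, 8.86 and 3.31 CPM, lymphatic endothelial-like cells 2.63, 5.38 and 1.21 CPM, muscle-like cells 4.39, 0 and 2.86 CPM, and pericyte-like cells none. The Schwann-like and blood endothelial-like ranges overlapped. Near-empty droplets of the mixed library, which hold free RNA, carried 17.0 CPM of Trpm3 (9.90 to 27.2), above the blood endothelial-like level of that library (14.6 CPM); its Schwann-like level, 24.6 CPM from 3 UMIs, was also under the droplets' upper limit. Against the pooled other classes the log2 difference was 1.49 (SE 0.36, edgeR adjusted p = 0.0161) in blood endothelial-like and 2.25 (SE 0.53, edgeR adjusted p = 0.000787) in Schwann-like cells, the latter beside 37.1% of all genes called. Against the mean of the other classes the blood endothelial-like call (edgeR adjusted p = 0.0101) was lost without the mixed library (edgeR adjusted p = 0.114), and the Schwann-like call (edgeR adjusted p = 0.000864) without PLV replicate 1 (edgeR adjusted p = 0.249). For the other members the near-empty droplets held 2.00 CPM of Trpc1 and Trpm4, 4.00 of Trpc6, 7.99 of Trpv2, 9.99 of Trpv4, 41.0 of Pkd2 and 42.0 of Trpm7. The contractile Trpv2 and endothelial Trpv4 levels of the mixed library were above the upper limits for these droplets (15.8 and 18.4 CPM), while its fibroblast-like Trpm7 level, 44.0 CPM, was close to the droplets' value. Its Schwann-like Trpm7 (41.1 CPM) and lymphatic endothelial-like Pkd2 (36.2 CPM) were below the droplets' values, and its blood endothelial-like Trpc6 (7.62 CPM) and Trpv2 (14.6 CPM) were under their upper limits (10.2 and 15.8 CPM).

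In blood endothelial-like cells 3 members were called higher (Trpv4, Trpm3 and Trpc6) and 1 lower (Trpc1), beside 18.2% of all genes higher and 10.4% lower. In lymphatic endothelial-like cells 1 was higher (Trpv4) and 2 were lower (Trpc1 and Pkd2), beside 19.7% and 13.4%. In Schwann-like cells, glia of peripheral nerves, 1 was higher (Trpm3) and 3 were lower, beside 16.3% and 16.4%. The lower ones were Trpm7 (-0.71, SE 0.22, edgeR adjusted p = 0.0176), Trpv2 (edgeR adjusted p = 0.0471, from 0, 1 and 0 UMIs) and Trpv4, which had none (edgeR adjusted p = 0.0338). Without PLV replicate 1 none of the 4 was called; without the mixed library Trpv2 and Trpv4 were not called (edgeR adjusted p of 0.0573 and 0.0721), and without PLV replicate 2 Trpv4 was not.

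Trpm7 and Pkd2 were found in every structural class. Trpm7 stood at 236, 128 and 112 CPM in pericyte-like cells, above each of the other 5 tested classes in the same library, at 99.6, 94.8 and 67.8 CPM in muscle-like and at 71.9, 77.3 and 41.1 CPM in Schwann-like cells. Blood endothelial-like (94.6, 94.8 and 73.6 CPM), fibroblast-like (115.2, 99.7 and 44.0 CPM) and lymphatic endothelial-like cells (77.9, 106.6 and 56.7 CPM) overlapped the muscle-like range. The pericyte-like log2 difference was 0.79 (SE 0.18, edgeR adjusted p = 0.00515), and without PLV replicate 1 it was 0.61 (edgeR adjusted p = 0.164).

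Pkd2 had its highest means over libraries in fibroblast-like cells, at 131.4, 190.6 and 73.8 CPM, and in pericyte-like cells, at 162.7, 127.6 and 96.0 CPM; in the mixed library the fibroblast-like level was below the muscle-like one. Muscle-like cells held 86.4, 98.7 and 93.1 CPM, Schwann-like cells 88.8, 122.3 and 57.5 CPM, blood endothelial-like cells 68.7, 99.6 and 64.1 CPM, and lymphatic endothelial-like cells 58.2, 76.5 and 36.2 CPM. The lymphatic class was the lowest in each library, and neighbours in the order overlapped. Pkd2 was higher in fibroblast-like cells by 0.83 (SE 0.16, edgeR adjusted p = 0.000273) and lower in lymphatic endothelial-like cells by -0.87 (SE 0.18, edgeR adjusted p = 0.000657). In fibroblast-like cells Pkd2 was the 1 member called higher and Trpv2 the 1 called lower (edgeR adjusted p = 0.0107), beside 23.3% of all genes higher and 11.7% lower. Without PLV replicate 2 the Trpv2 call was lost (edgeR adjusted p = 1), with Schwann-like cells then at 0 UMIs in both libraries left. Macrophage-like cells had 3.04 and 0 CPM of Pkd2 in the 2 libraries that held them.

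Trpm4 stood at 22.4, 39.9 and 26.7 CPM in pericyte-like and 25.9, 19.2 and 8.98 CPM in muscle-like cells. Fibroblast-like cells held 10.8, 17.7 and 8.04 CPM, blood endothelial-like 17.5, 4.74 and 14.0 CPM, lymphatic endothelial-like 11.8, 17.2 and 4.83 CPM and Schwann-like 4.23, 6.44 and 8.21 CPM. Each class overlapped the next in the order, and Trpm4 was not called in any class against the mean of the others in edgeR; its largest differences were -1.70 in Schwann-like cells (SE 0.70, edgeR adjusted p = 0.0693) and 1.27 in pericyte-like cells (SE 0.48, edgeR adjusted p = 0.0885). It was called higher in pericyte-like cells with DESeq2 and at Leiden resolution 2, and lower in Schwann-like cells with no filter on low counts.

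Between muscle-like and pericyte-like cells, edgeR called 0 of the 8 members, beside 12.2% of all genes. At an unadjusted p under 0.05 it passed 2, Trpm7 (-0.64, SE 0.22, edgeR adjusted p = 0.0628) and Trpc6 (-1.65, SE 0.67, edgeR adjusted p = 0.147), both lower in muscle-like cells. DESeq2 called 1 member, Trpm7, and edgeR called 1, Trpc6, without the mixed library.

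Muscle-like cells fell into kinds, each called by a pair of genes known from earlier results on these cells, and no TRP gene was used to form them. The Ano1 and Hmcn2 kind (155, 57 and 197 cells) is named for a calcium-activated chloride channel and a matrix protein. The Pln and Sorbs2 kind (241, 52 and 43 cells) is named for phospholamban, an inhibitor of the calcium pump of the sarcoplasmic reticulum, and an adaptor of the actin cytoskeleton. The P2rx1 and Col12a1 kind (74 cells), named for an ATP-gated channel and a collagen, was found in the mixed library only.

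Pkd2 separated the first pair of kinds in all libraries. It stood at 165.2, 179.9 and 131.1 CPM in the Ano1 and Hmcn2 kind and at 42.6, 41.5 and 54.5 CPM in the Pln and Sorbs2 kind, with no overlap. The ratios were 3.88 (exact 95% interval 2.80 to 5.43), 4.34 (2.55 to 7.71) and 2.41 (1.46 to 4.23), and the log2 difference was 1.65 (SE 0.21, edgeR adjusted p = 5.68e-12). Thinned to 1500 UMIs per cell, 23.5%, 26.5% and 18.2% of cells of the first kind had a Pkd2 UMI, against 5.46%, 7.69% and 6.98% of the second; before thinning the shares were 44.5%, 56.1% and 52.8% against 19.1%, 30.8% and 34.9%. In macrophage-like cells, a class with little Pkd2, 1 of 86 cells (PLV replicate 1, median 3103 UMIs) and 0 of 31 cells (mixed library, 5322 UMIs) had a Pkd2 UMI, while the median depths of the kinds were 4090 to 8563 UMIs. Fibroblast markers also differed, at 1765, 1399 and 2513 CPM in the first kind and 348, 277 and 1653 CPM in the second, against 40604, 35214 and 93313 CPM in fibroblast-like cells; their part in the Pkd2 difference was not tested. The Pkd2 level of the first kind was above the fibroblast-like level in PLV replicate 1 and the mixed library and below it in PLV replicate 2. In the P2rx1 and Col12a1 kind Pkd2 was at 47.2 CPM, 0.360 times the Ano1 and Hmcn2 kind (0.247 to 0.512). This level and the Pln and Sorbs2 level of the mixed library (54.5 CPM) were under the near-empty droplets' upper limit (55.6 CPM).

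Trpv2 was higher and Trpm4 lower in the Ano1 and Hmcn2 kind. Trpv2 stood at 132.4, 71.4 and 63.3 CPM against 56.2, 54.6 and 28.8 CPM in the Pln and Sorbs2 kind, with ratios of 2.35, 1.31 and 2.19 and a log2 difference of 0.83 (SE 0.23, edgeR adjusted p = 0.00222). Trpm4 stood at 10.9, 15.5 and 10.7 CPM against 34.2, 21.8 and 16.0 CPM, with ratios of 0.319, 0.710 and 0.666 and a log2 difference of -1.25 (SE 0.42, edgeR adjusted p = 0.0125). Neither pair of ranges overlapped, though the Trpm4 gap was under 1 CPM. Trpm4 rested on 8, 5 and 14 UMIs against 45, 10 and 5. For both genes the exact counting intervals of the kinds were apart in PLV replicate 1 only. Those of Trpv2 overlapped in PLV replicate 2, at 45.2 to 107.1 against 35.3 to 80.6 CPM. They also overlapped in the mixed library, at 50.4 to 78.4 against 13.2 to 54.7 CPM. Those of Trpm4 overlapped there too, at 5.04 to 36.2 against 10.5 to 40.2 CPM and 5.84 to 17.9 against 5.20 to 37.4 CPM. Both calls were lost without PLV replicate 1, at 0.54 (edgeR adjusted p = 0.323) for Trpv2 and -0.70 (edgeR adjusted p = 0.622) for Trpm4, and with DESeq2 (adjusted p of 0.318 and 0.435). Without the library as a block, Trpv2 differed by 0.71 (edgeR adjusted p = 0.122).

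The remaining members did not differ by the test. Trpm7 stood at 124.2, 117.9 and 81.6 CPM against 85.9, 78.6 and 44.9 CPM (0.44, SE 0.21, edgeR adjusted p = 0.101), higher in 3 of 3 libraries. Trpc1 was at 36.9, 18.6 and 29.0 CPM against 28.1, 37.1 and 9.61 CPM (0.11, SE 0.32, edgeR adjusted p = 0.847), and Trpc6 at 10.9, 3.10 and 9.91 CPM against 3.04, 0 and 6.41 CPM (1.33, SE 0.72, edgeR adjusted p = 0.171). Trpm3 and Trpv4 were too low to enter the test. In all, 2 members were called higher and 1 lower of 6 tested, beside 15.2% and 14.6% of the 9435 genes.

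**Figure D3:**
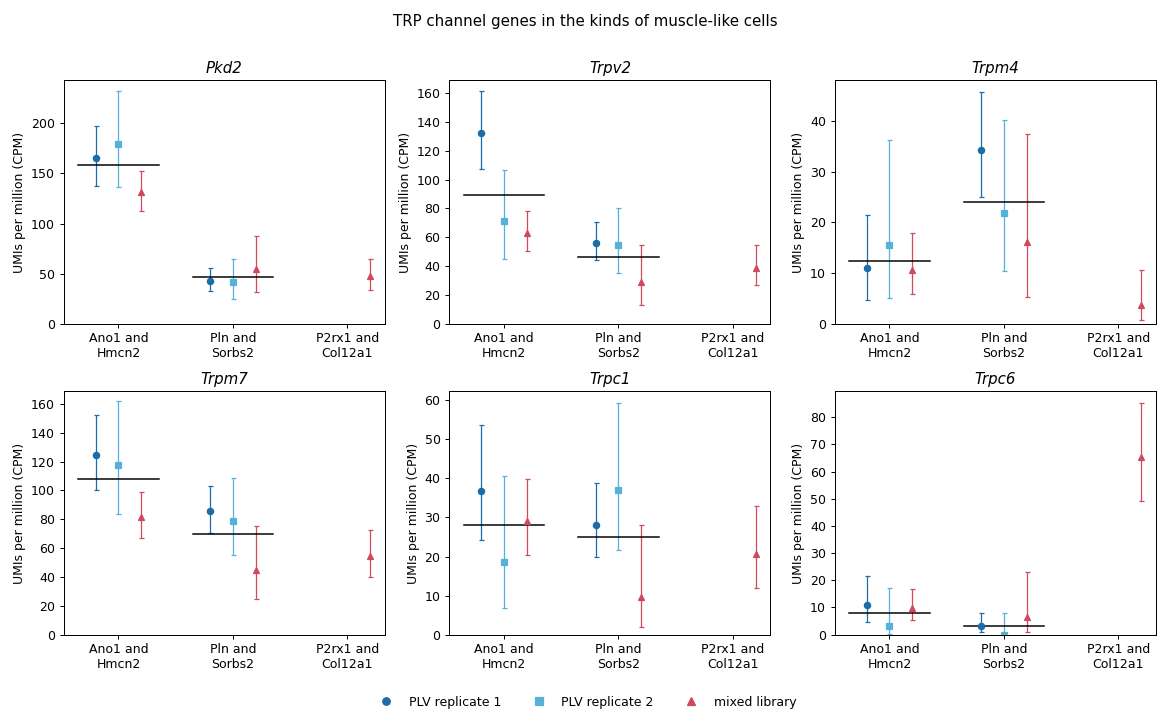
Level of the TRP members (CPM) in the kinds of muscle-like cells; points are libraries, bars are 95% exact Poisson intervals and black lines are means over libraries. Pkd2 stood at 131.1 to 179.9 CPM in the Ano1 and Hmcn2 kind against 41.5 to 54.5 CPM in the Pln and Sorbs2 kind, and Trpc6 was at 65.3 CPM in the P2rx1 and Col12a1 kind.

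Trpc6 was high in the P2rx1 and Col12a1 kind, at 65.3 CPM from 54 UMIs (exact 95% interval 49.1 to 85.3). That was 6.59 times its level in the Ano1 and Hmcn2 kind of the same library (3.55 to 13.2) and 10.2 times that in the Pln and Sorbs2 kind (2.69 to 86.4), and it exceeded the pericyte-like level there, 37.3 CPM. A Trpc6 UMI was seen in 35 of its 74 cells (47.3%, exact binomial 35.6% to 59.3%), and after thinning to 1500 UMIs in 13.5% (6.68% to 23.5%), against 1.07% in the Ano1 and Hmcn2 and 2.33% in the Pln and Sorbs2 kind. These cells were deep, with a median of 10117 UMIs, and 0 of 276 fibroblast-like cells of the library (median 6933 UMIs) had a Trpc6 UMI. By the exact interval this allows up to 1.33% of cells with a UMI, and it does not limit cells that express the gene below detection. Pericyte markers summed to 929 CPM in the P2rx1 and Col12a1 kind, below the 1363 and 1282 CPM of the other kinds of that library, and muscle markers to 51503 CPM. The kind came from 1 library, so it has no replicate check.

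Within muscle-like cells, Trpc6 was above both PLV libraries in the mixed one (28.2 CPM against 5.86 and 1.28), a comparison of 1 library with 2 that also differ in vessel, digestion, run and Cell Ranger version. The log2 difference was 2.89. The mixed side has no replicate, so its edgeR test (SE 0.70, adjusted p = 0.0201) takes the spread from the PLV pairs of all classes and compares these libraries, not vessels; on those terms 1 member and 4.67% of 11979 genes were called. With the P2rx1 and Col12a1 kind left out, an alternative added after the data were seen, the difference was 1.25 (SE 0.92, edgeR adjusted p = 0.544) and 0 members were called, beside 2.98% of all genes. At a minimum of 1000 UMIs per cell it was 2.12 (edgeR adjusted p = 0.121). Trpm4 was lower in the mixed library by -1.13 (SE 0.50) and did not pass the test (edgeR adjusted p = 0.224).

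Genes that act with these channels were counted by lists that were drawn up with earlier results of these data known. A gene near 0 outside muscle-like cells entered the test through those cells alone and had to differ, so the counts are descriptions. Of 6 genes for depolarisation and calcium entry, 5 were tested and called higher in muscle-like cells; Kcnma1 and Kcnmb1 entered in that way, and nothing is read from this count. Cacna1c, the L-type calcium channel, stood at 170.4, 193.5 and 116.7 CPM in muscle-like cells against means of 37.5, 23.4 and 24.7 CPM over the other classes (4.92, SE 0.33, edgeR adjusted p = 1.58e-09). Kcnma1, the calcium-activated potassium channel known to work with TRP channels in vessel muscle, was at 86.9, 92.3 and 80.8 CPM against means of 0.350, 0 and 0 CPM over the other classes. In pericyte-like cells 3 of these 5 genes were higher and 0 lower, beside 9.44% and 4.86% of all genes.

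Of 11 receptors that act through Gq, 7 were tested; muscle-like cells had 5 of them higher and 1 lower, beside 20.5% and 12.6% of all genes, and pericyte-like cells 5 higher and 0 lower, beside 9.44% and 4.86%. Ednra, an endothelin receptor, was higher in muscle-like cells by 3.77 (SE 0.25, edgeR adjusted p = 4.87e-10), and Adra1a, Adra1b and F2r, the thrombin receptor, were called higher too. The test averages log levels. On the CPM scale F2r, at 31.2, 44.9 and 28.6 CPM, was close to the plain means of the other classes (38.2, 41.1 and 24.1 CPM). Adra1b, at 5.86, 7.69 and 17.96 CPM, was below those means in both PLV libraries and above in the mixed one (9.90, 10.2 and 5.31 CPM). Ednrb, the other endothelin receptor, was lower, at 2.93, 1.28 and 3.27 CPM against 92.0, 91.3 and 61.0 CPM. Of 11 phospholipase C pathway genes 9 were tested, of which 3 were higher in muscle-like cells and 0 lower (Plcb4, Plcd1 and Dgkz), not far from the 20.5% of all genes called higher there. In blood endothelial-like cells 7 of the 9 were higher and 0 lower, beside 18.2% and 10.4% of all genes. Pericyte-like cells, where Trpc6 was highest, had 0 of the 9 higher and 2 lower, beside 9.44% and 4.86%.

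Of 11 genes of calcium stores and store-operated entry 9 were tested, with 5 higher and 2 lower in muscle-like cells, beside 20.5% and 12.6% of all genes. Blood endothelial-like cells had 5 of the 9 higher and 1 lower, beside 18.2% and 10.4%. Pericyte-like cells had 1 higher and 1 lower, beside 9.44% and 4.86%. Ryr2, a calcium release channel, stood at 114.3, 152.5 and 63.7 CPM in muscle-like cells against means of 0.760, 0 and 3.83 CPM over the other classes. Being near 0 outside muscle-like cells, Ryr2 had to differ, and nothing is read from the muscle-like count. Itpr1 was higher by 2.62 (SE 0.24, edgeR adjusted p = 4.13e-08), and Itpr3, another inositol trisphosphate receptor, had 1 UMI in muscle-like cells of all libraries, where the means over the other classes were 69.6, 66.4 and 51.9 CPM. Of 12 partners and subunits 10 were tested, 7 higher and 1 lower in muscle-like cells, and 1 higher and 0 lower in pericyte-like cells. Kcnma1 is on this list as well as on that for depolarisation, so nothing is read from its muscle-like count. The mechanically gated channels Piezo1 (14.2, 7.69 and 8.16 CPM against 70.6, 75.8 and 41.3 CPM) and Piezo2 were lower in muscle-like cells, 2 of the 4 on that list, and 0 were higher.

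The other TRP genes were rare. Of 20 listed, 19 were in the files, 6 had no UMI and 16 had under 50 UMIs. Trpv1, the capsaicin receptor, chosen after its values were seen, was at 44.1, 76.4 and 19.2 CPM in the Pln and Sorbs2 kind and at 0 in the Ano1 and Hmcn2 kind of every library. By the 3-UMI level over the libraries it was at least 37.4-fold higher in the Pln and Sorbs2 kind, a description with no test, and it had 1.21 CPM in the P2rx1 and Col12a1 kind. Trpv1 was therefore low in the Ano1 and Hmcn2 kind, where Pkd2 was high. In the P2rx1 and Col12a1 kind both were low, with Pkd2 at 47.2 CPM.

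Genes most like each member were found by Pearson's r of log2(CPM + 1) over the 18 sums of 6 classes in 3 libraries; sums of a library share its mice and depth, and r is given as a description. Trpv2 was most like Stk38l (0.95), Fhl5 (0.94) and Gm13861 (0.94), and Trpc6 like Fhl5 (0.93), Adra2a (0.90) and Ephx3 (0.90), so that Fhl5 stood on both lists. Trpv4 was most like Lmo2 (0.96), Sox7 (0.95) and 6430548M08Rik (0.93). Trpc1 was most like Cacnb3 (0.93), Pkd2 like Lamc1 (0.88), Trpm3 like Fam107a (0.85), Trpm7 like Cabin1 (0.85) and Trpm4 like Plekhh3 (0.80).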

How the data were processed

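The authors deposited raw UMI counts of each gene in each barcode. Per the file headers, they were made with Cell Ranger 6.1.2 (PLV, filtered to 2649 and 730 barcodes) and Cell Ranger 4 (mixed library, all 896360 barcodes); the build was GRCm38, per the submitters' processing notes. Hashtag counts were not used here. Barcodes were kept with at least 500 UMIs and 300 genes, at most 15% mitochondrial and 20% haemoglobin UMIs. Doublets called by scrublet (10, 3 and 3 cells) were removed, though others may be left. Clustering was run per library (scanpy 1.11.5, 2000 variable genes, 50 components, 15 neighbours, leidenalg 0.10.2, resolution 1), without the members and listed genes. A cluster was named when at least 3 markers and 50% of a list were 2-fold higher (20 CPM added); the 50% rule and the exclusion of erythroid markers were set after clusters were seen. UMIs were summed per library and class and tested over all genes with edgeR 4.0.16 (quasi-likelihood, TMM, filterByExpr, library as a block, Benjamini-Hochberg at 0.05), checked on simulated counts; DESeq2 1.42.0 was an alternative. A class was set against the mean of the log levels of the other classes; where a class had no UMI in any library, that size depends on the prior count and is not given for members. The members and lists were chosen with earlier results of these data known. Members are named throughout, and other genes if called in muscle-like cells with at least 10 UMIs, up to 5 per list, except 1 that is not reported here. Intervals (exact, 95%) and the level of 3 UMIs cover counting error only.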

Additional observations from a re-analysis of the deposited data

How the results depend on the processing

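Of the values of called members under the alternatives (DESeq2, RLE size factors, no filter on low counts, no replicate block, 1000 UMIs per cell, Leiden resolution 2, pooled other classes, and each library left out), 221 kept their direction and side of the threshold, 37 lost the call and 1 reversed. The 1 reversed was Trpc6 in blood endothelial-like cells, -0.20 against the pooled other classes. Pkd2 between muscle kinds and Trpv2 and Trpc1 in muscle-like cells kept their calls in each alternative run.

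With DESeq2, members called went from 3 to 5 in lymphatic endothelial-like cells, from 4 to 2 in Schwann-like cells, from 0 to 1 between muscle-like and pericyte-like cells, from 3 to 1 between muscle kinds and from 1 to 0 between the mixed and PLV libraries, where DESeq2 gave Trpc6 no adjusted p. Between muscle-like and pericyte-like cells 1 was called with RLE factors and 1 with no filter. At 1000 UMIs per cell, 2 were called in Schwann-like cells and 0 between the mixed and PLV libraries. Against pooled other classes 5 were called in lymphatic endothelial-like cells, and without the P2rx1 and Col12a1 kind 0 between the libraries. With 1 library left out, counts ranged from 1 to 2 in fibroblast-like, 2 to 3 in blood endothelial-like, 0 to 3 in Schwann-like cells, 0 to 1 between muscle-like and pericyte-like, 0 to 3 between the endothelial classes and 1 to 3 between kinds. The causes were not tested.

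The library block pairs classes of the same mice. With no replicate block, calls lost were Trpc6 in blood endothelial-like cells (edgeR adjusted p = 0.104), Trpm7 in Schwann-like cells (-0.66, edgeR adjusted p = 0.078) and Trpv2 between kinds (0.71, edgeR adjusted p = 0.122). No paired analysis was possible between the mixed and PLV libraries because they came from different mice. With the PLV replicate as a block over all classes, Trpc6 differed by 2.53. Without PLV replicate 1 or 2 its log2 ratio of CPM with 1 CPM added was 3.68 or 2.09, with no test. Thinning to 1500 UMIs lowered 36 of 48 shares of cells beyond their interval. Low counts limit Trpc6 (147 UMIs in all cells) and Trpm3 (124).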
